A study of Homo sapiens with 2 samples.

Results

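The 9 genes described here encode the oligoadenylate synthetase (OAS) family and the cytosolic proteins that sense or edit double-stranded RNA: OAS1, OAS2, OAS3, OASL, RIGI (listed under its older symbol DDX58), IFIH1, DHX58, EIF2AK2 and ADAR. They were taken as a named list that was chosen by measured values of this same pair of arrays, so their differences are given as a description, with no test. Through RefSeq transcript accessions the list matched 14 probes, and 12 of them, covering all 9 genes, were well above background on both arrays. The array held 21614 named genes, of which 11994 could be compared.

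HCT116 is an established cell line from a human colon carcinoma. Cells labelled control (mock-transfected) were compared with cells overexpressing HOXA5 short RNA, a transcript of the HOXA5 locus that lacks the first HOXA5 exon. Both groups carried a pEB plasmid vector and both were kept for 2 weeks in medium with blasticidin, which selects transfected cells. The treatment text attached to the mock sample is the one for the HOXA5 short vector, so the groups rest on the genotype label. Whether the cells were clones or pools is not given in the sources used here. Total RNA was labelled with the dye Cy3 and hybridised to Agilent arrays in 1 colour, with 1 array per group, both on the same slide and scanned together. There was therefore no replicate, no difference was tested, and each value belongs to this pair of arrays. In bulk RNA, a change in the share of responding cells and a change of RNA per cell cannot be told apart.

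Double-stranded RNA in the cytosol, a common sign of viral infection, is met by several protein families. OAS1, OAS2 and OAS3 bind it and make 2′-5′-linked oligoadenylates, small signals that lead to RNA decay. RIG-I (RIGI) and MDA5 (IFIH1) are helicases that signal through MAVS to the genes of type I and type III interferons, PKR (EIF2AK2) halts translation by phosphorylating eIF2 alpha, and ADAR converts adenosine to inosine in double-stranded RNA. Interferon in turn raises transcription of most of these genes through promoter elements rich in GAAA, to which STAT and IRF factors bind.

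Promoter letters are shown for the members with such an element, since the rule for the list did not use promoter letters. RefSeq promoters (GRCh38.p14, 250 bases before to 50 after the start site) were at hand for OAS1, OAS3, RIGI, IFIH1, EIF2AK2 and ADAR. OAS2, OASL and DHX58 had no entry. The motif GAAANNGAAA and the shorter AANNGAAA, which it contains, were searched on both strands, and the motifs were picked after these promoters had been read. In the lines that follow, written 5′ to 3′ on the strand of the gene, capitals mark the match.
OAS1 (chr12:112906921-112906978, plus strand): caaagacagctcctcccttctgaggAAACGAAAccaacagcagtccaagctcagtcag
OAS3 (chr12:112938439-112938496, plus strand): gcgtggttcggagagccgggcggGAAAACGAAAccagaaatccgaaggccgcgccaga
RIGI (chr9:32526366-32526423, minus strand): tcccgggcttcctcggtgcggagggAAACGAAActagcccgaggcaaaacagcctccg
IFIH1 (chr2:162318671-162318728, minus strand): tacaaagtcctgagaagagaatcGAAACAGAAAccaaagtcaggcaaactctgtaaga
EIF2AK2 (chr2:37156952-37157009, minus strand): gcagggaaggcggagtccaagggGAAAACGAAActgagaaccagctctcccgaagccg

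GAAANNGAAA was found in OAS3, IFIH1 and EIF2AK2, 3 of the 6 genes with a promoter, against 3.57% of all 35116 RefSeq promoters. AANNGAAA was found in 5 of the 6, against 22.8% of all promoters. The units differ, since a gene was counted if any of its promoters matched, while the shares of all promoters count each promoter. OAS1 and RIGI held the shorter motif alone, and the ADAR promoters held neither. The matches printed began 16 bases before the start site in OAS1, 12 before in OAS3, 21 before in IFIH1, 6 before in EIF2AK2 and 202 before in RIGI. GAAANNGAAA was found 2 times in OAS3, 3 times in IFIH1 and 1 time in EIF2AK2, and AANNGAAA 2 times in OAS1 and 3 times in RIGI, counting both strands. OAS3 and EIF2AK2 held the same 10 letters, GAAAACGAAA, close to the start site, with array differences of 0.62 and -0.14. The sign of EIF2AK2 depended on the scaling, and with the spike-ins the values were 1.09 and 0.32. In the list of interferon-induced effectors described last, 19 of 25 genes with a promoter held GAAANNGAAA. A match is a run of letters and says nothing about binding in these cells.

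Differences are given as log2 of the processed signal, less the 75th percentile of each array, HOXA5 short minus mock. The percentile was 35.6 in mock cells and 44.0 in HOXA5 short cells. Signals are printed as measured, before this scaling, with the error the scanner software gave. As a check of the labels, the HOXA5 probe read 39.4 in mock cells and 346 in HOXA5 short cells, a difference of 2.83. The median of all 11994 genes was -0.02 with an SD of 0.29.

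Among the OAS synthetases, OAS1 had a processed signal of 123 ± 12.4 in mock cells and 231 ± 23.2 in HOXA5 short cells. After scaling the difference was 0.61 on the log2 scale, or 1.53-fold. OAS1 makes short oligoadenylates and is the smallest enzyme of the family. OAS3, the largest, had 2 probes that both read higher on the HOXA5 short array. The first read 245 ± 24.5 in mock cells and 431 ± 43.1 in HOXA5 short cells, a difference of 0.51. The second was dim, at 17.0 ± 2.34 and 34.9 ± 3.90, and gave 0.73. The gap between the OAS3 probes, 0.22, was within the 0.33 that the spread of single spots gives, and their mean was 0.62 (1.54-fold).

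OAS2, the middle-sized enzyme, rested on 1 of 3 probes. The probe for NM_001032731 read 19.5 ± 2.73 in mock cells and 44.5 ± 4.89 in HOXA5 short cells, a difference of 0.88 (1.84-fold), the highest of the members. The probe for NM_002535 read 1.66 ± 1.67 and 8.61 ± 1.99, and that for NM_016817 read 2.32 ± 1.86 and 6.82 ± 2.13. Neither was well above background on either array, so no fold is given for them. With another background correction (normexp) the OAS2 difference was 0.26, that of OAS3 was 0.41 and that of OAS1 was 0.53, all short of 1.5-fold. This correction was run with an offset of 50 added to every signal, which by itself shrinks the differences of dim probes.

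OASL is related to the synthetases but makes no oligoadenylate, and it is known to enhance RIG-I signalling. Its probe read 3839 ± 384 in mock cells and 6939 ± 694 in HOXA5 short cells, a difference of 0.55 (1.46-fold). The 21 spots around it that could be compared had a mean difference of 0.13, and 0.42 was left for OASL once this was subtracted. With normexp it was 0.65, past 1.5-fold. All 4 OAS family genes were thus higher on the HOXA5 short array, between 0.55 and 0.88, with a median of 0.62.

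**Figure D1:**
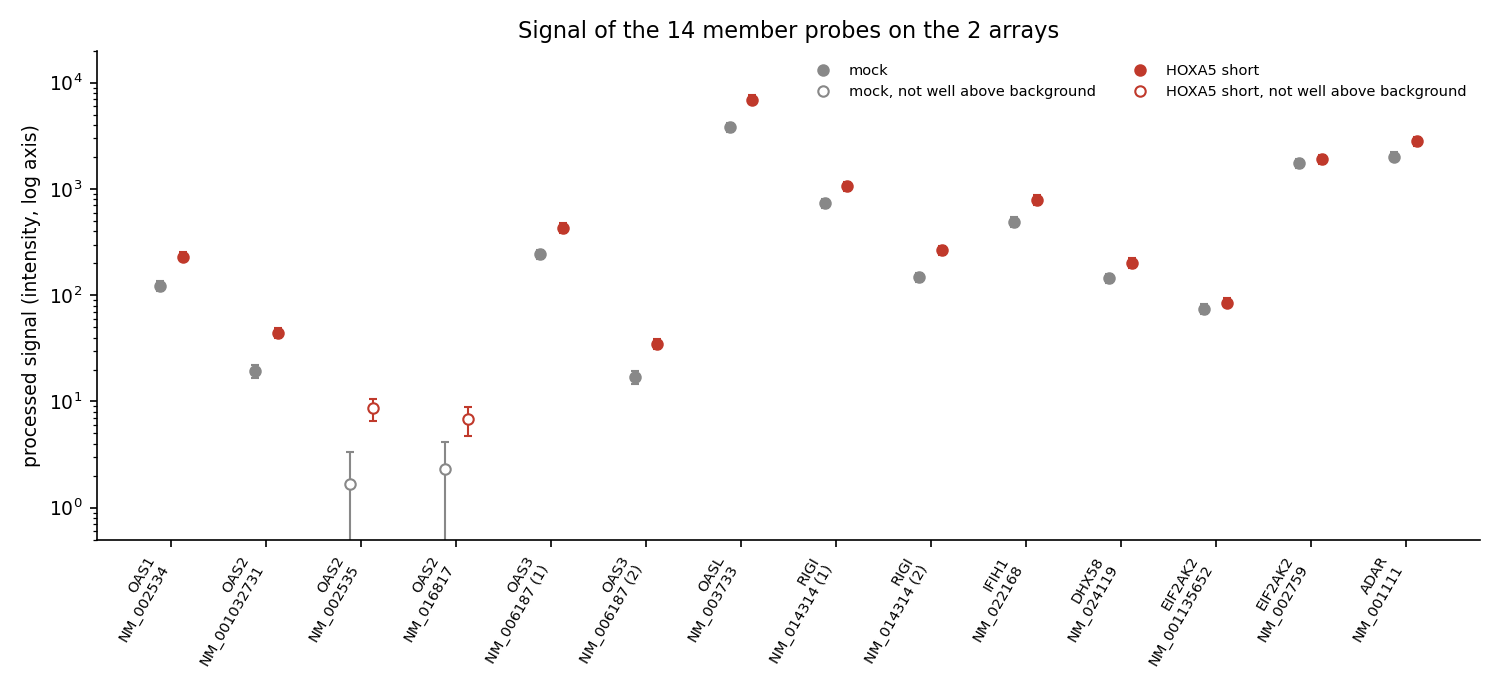
Processed signal (intensity, log axis) of the 14 member probes on the mock array (grey) and the HOXA5 short array (red), 1 array each. Bars are the error of the scanner software, and open circles mark the 2 OAS2 probes not well above background, whose lower bars on the mock array run past the axis. The red point lies above the grey point for every probe before scaling.

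Of the RIG-I-like receptors, RIGI recognises RNA ends that carry triphosphates. Its first probe read 733 ± 73.3 in mock cells and 1064 ± 106 in HOXA5 short cells, a difference of 0.23. Its second read 148 ± 14.9 and 267 ± 26.7, a difference of 0.54. Both matched the same transcript accession, and their gap of 0.31 exceeded the 0.25 that the spread of single spots gives, so the mean of 0.39 covers probes that disagree in size but not in direction. IFIH1, which binds long double-stranded RNA, read 491 ± 49.2 in mock cells and 794 ± 79.4 in HOXA5 short cells, a difference of 0.39 (1.31-fold). DHX58 encodes LGP2, a helicase without the signalling domains of the other two. It read 144 ± 14.5 and 202 ± 20.3, and its difference of 0.19 did not exceed the spread of single spots of like brightness, 0.19.

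EIF2AK2, which encodes the kinase PKR, was the only member with a negative difference. Its probe for NM_002759 read 1743 ± 174 in mock cells and 1899 ± 190 in HOXA5 short cells, which after scaling was -0.18. Its probe for NM_001135652 read 74.6 ± 7.62 and 85.4 ± 8.71, which was -0.11. Before scaling, both probes read higher in HOXA5 short cells, and the sign came from the scaling between the arrays. The mean, -0.14, became 0.32 when the arrays were scaled to the spike-in RNAs. ADAR read 2021 ± 202 in mock cells and 2835 ± 283 in HOXA5 short cells, a difference of 0.18 (1.14-fold), which was within the scanner error of 0.20. With the mean of the neighbouring spots subtracted it was 0.07.

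Of the 12 probes that passed, 10 were higher and 2 lower on the HOXA5 short array. The size of the difference exceeded the spread of single spots of like brightness for 10 probes and the scanner error for 8. No share over all probes is given beside these counts, and the members were chosen by this difference, so nothing is read from them. This spread came from probes printed in at least 5 spots and was 0.29 for signals of 15 to 50, 0.19 for 50 to 200, 0.17 for 200 to 1000 and 0.12 above. It holds no variation between cultures. None of the 12 probes lay in an uneven area of the array, defined as one where at least 10% of the neighbouring spots differed 2-fold. Around each there were 20 to 32 neighbours, of which at most 1 differed 2-fold.

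By gene, 8 of the 9 members were higher on the HOXA5 short array, where 45.4% of all genes compared were higher by any amount. The members that reached 1.5-fold higher were OAS1, OAS2 and OAS3, against 2.78% of all genes (333). No member was 1.5-fold lower, against 1.6% of all genes (192). No member reached 2-fold higher, against 0.642% of all genes. Since the members were chosen by this difference, nothing is read from these counts. The split of 333 and 192 genes became 500 and 128 with scaling to the median, and 2991 and 23 with scaling to the spike-ins.

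From highest to lowest the order was OAS2, OAS3, OAS1, OASL, RIGI, IFIH1, DHX58, ADAR and EIF2AK2. OAS2 ranked 118 of 11994 genes, OAS3 300, OAS1 314 and OASL 376. RIGI ranked 744 and IFIH1 749, at the same difference to 2 decimals. DHX58 ranked 2053, ADAR 2070 and EIF2AK2 8909. Neighbours in this order lay closer together than the spread of single spots allows to be told apart, with 1 exception. The gap of 0.33 between ADAR and EIF2AK2 exceeded its spread of 0.16. The gap between OASL, the lowest of the OAS family, and RIGI was 0.16 against a spread of 0.17.

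**Figure D2:**
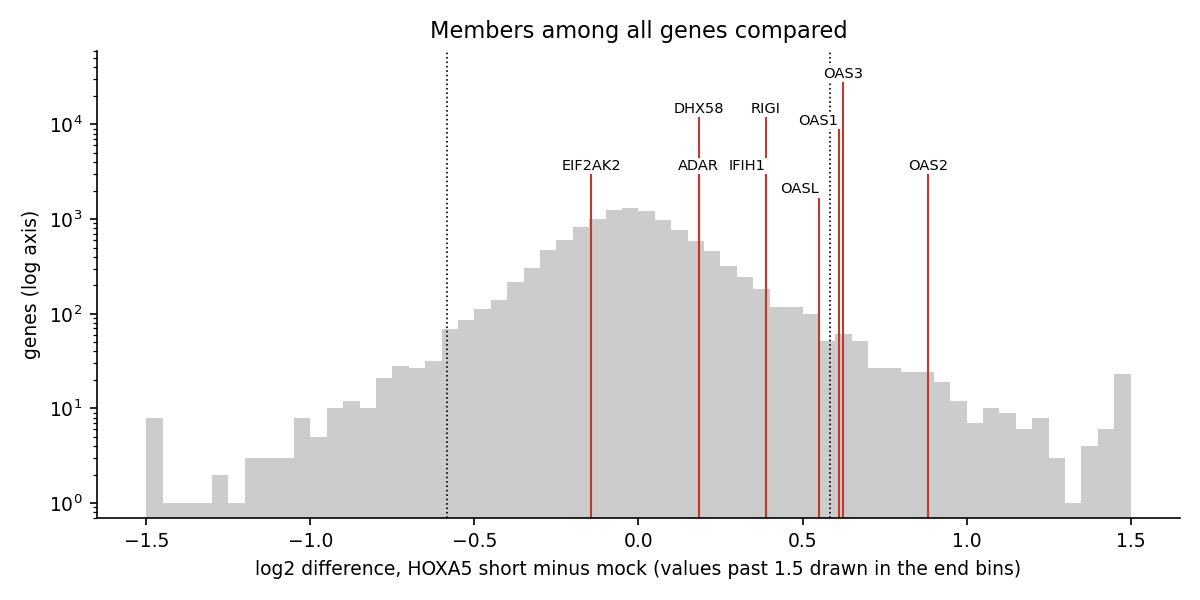
Histogram of the log2 difference (x axis, HOXA5 short minus mock) of 11994 genes, with the number of genes on a log axis and differences past 1.5 drawn in the end bins. Red lines mark the 9 members at heights that serve the labels only, and dotted lines mark 1.5-fold, which OAS1, OAS2 and OAS3 pass.

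OAS1, OAS3 and OAS2 lie next to each other on chromosome 12, and OASL lies farther along the same chromosome. The other members are on chromosome 9 (RIGI), 2 (IFIH1 and EIF2AK2), 17 (DHX58) and 1 (ADAR). Of the 5 protein-coding genes on each side of the OAS cluster, 7 of 10 could be compared, with a median of -0.01, and none was 1.5-fold higher. PTPN11, a phosphatase, was the highest by gene mean at 0.24, from probes that disagreed, at 1.03, -0.06 and -0.26. The helicase gene DDX54 was at 0.23, from probes at 0.64 and -0.17, so single probes of both genes did pass 1.5-fold. HECTD4 was the lowest at -1.06, the mean of 3 probes at -2.35, -0.61 and -0.24, of which the first lay in an uneven area. Around OASL, 8 of 10 neighbours could be compared and lay between -0.21 (P2RX7) and 0.19 (UNC119B). By gene mean, all 4 OAS family genes lay above the neighbours compared.

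**Figure D3:**
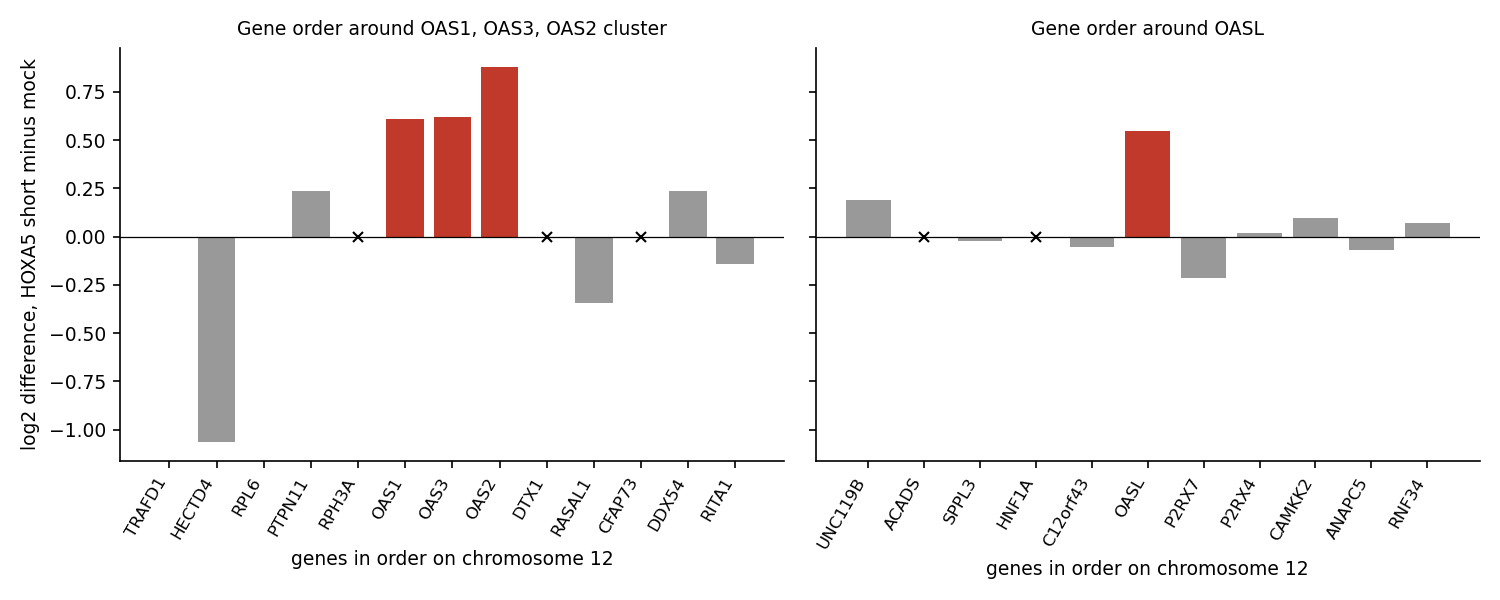
Log2 difference (y axis, HOXA5 short minus mock, 1 array each) of genes in their order on chromosome 12, with spacing not to scale. Red bars are OAS1, OAS3, OAS2 and OASL at 0.55 to 0.88, grey bars are the 5 protein-coding genes on each side, and crosses mark genes not well above background on both arrays.

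Partners of the members were described from lists of their pathways. PDE12, which degrades the oligoadenylates made by OAS1, OAS2 and OAS3, read 226 ± 22.6 in mock cells and 276 ± 27.7 in HOXA5 short cells, a difference of -0.01. ABCE1, a ribosome recycling factor listed with this pathway, had probes at -0.22 and -0.44 and a mean of -0.33. Neither gene was 1.5-fold apart.

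In RIG-I-like receptor signalling, 25 of 26 listed genes could be compared, 17 were higher and none was 1.5-fold apart, with a median of 0.10. Of all genes compared, 45.4% were higher. MAVS, the adaptor through which RIGI and IFIH1 signal, had 7 probes between -0.32 and 0.44 and a mean of -0.03. TRIM25, a ubiquitin ligase known for activating RIG-I, read 1726 ± 173 in mock cells and 3193 ± 319 in HOXA5 short cells, a difference of 0.58 just short of 1.5-fold. The kinase TBK1 was the lowest at -0.41, and the transcription factor IRF3 was at -0.05. Of inhibitors of this pathway, 11 of 14 could be compared, with a median of 0.07. TNFAIP3, which encodes the deubiquitinase A20, was the only one past 1.5-fold. It was dim, at 13.2 ± 2.08 and 34.5 ± 3.89, and its difference of 1.09 was 0.32 with normexp. RNF125 was the lowest inhibitor at -0.19.

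Around EIF2AK2, 13 of 15 genes of the PKR pathway and integrated stress response could be compared, none was 1.5-fold apart, and the median was 0.04. EIF2S1, which encodes the PKR substrate eIF2 alpha, was lowest at -0.10. Of 20 further RNA editing genes and nucleic acid sensors, the class that ADAR belongs to, 10 could be compared. Their median was 0.06, from DICER1 at -0.45 to SAMHD1 at 0.21, with none 1.5-fold apart. The median of all genes was -0.02.

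Interferons are the secreted products downstream of RIGI and IFIH1 and also the inducers of the members. Of 10 interferon genes listed, 3 could be compared, and all 3 were type III interferons past 1.5-fold higher, against 2.78% of all genes. IFNL1 read 104 ± 10.6 in mock cells and 248 ± 24.9 in HOXA5 short cells, a difference of 0.95 (1.93-fold). IFNL2 read 216 ± 21.7 and 501 ± 50.1, a difference of 0.91. IFNL3 read 36.6 ± 4.10 and 86.1 ± 8.83, a difference of 0.93, which was 0.55 and short of 1.5-fold with normexp. IFNL2 and IFNL3 are near-identical copies, so their probes may report the same RNA. None of the neighbouring spots of these 3 probes differed 2-fold. IFNB1 was well above background on the HOXA5 short array alone, at 11.2 ± 2.02 against 5.47 ± 1.64 on the mock array. Set against the lowest mock signal well above background, it was 1.17-fold after scaling. This is no strict bound, since some brighter mock spots were not well above background. IFNA2, IFNE, IFNK, IFNW1 and IFNG did not rise well above background on either array, and no probe matched IFNA1.

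**Figure D4:**
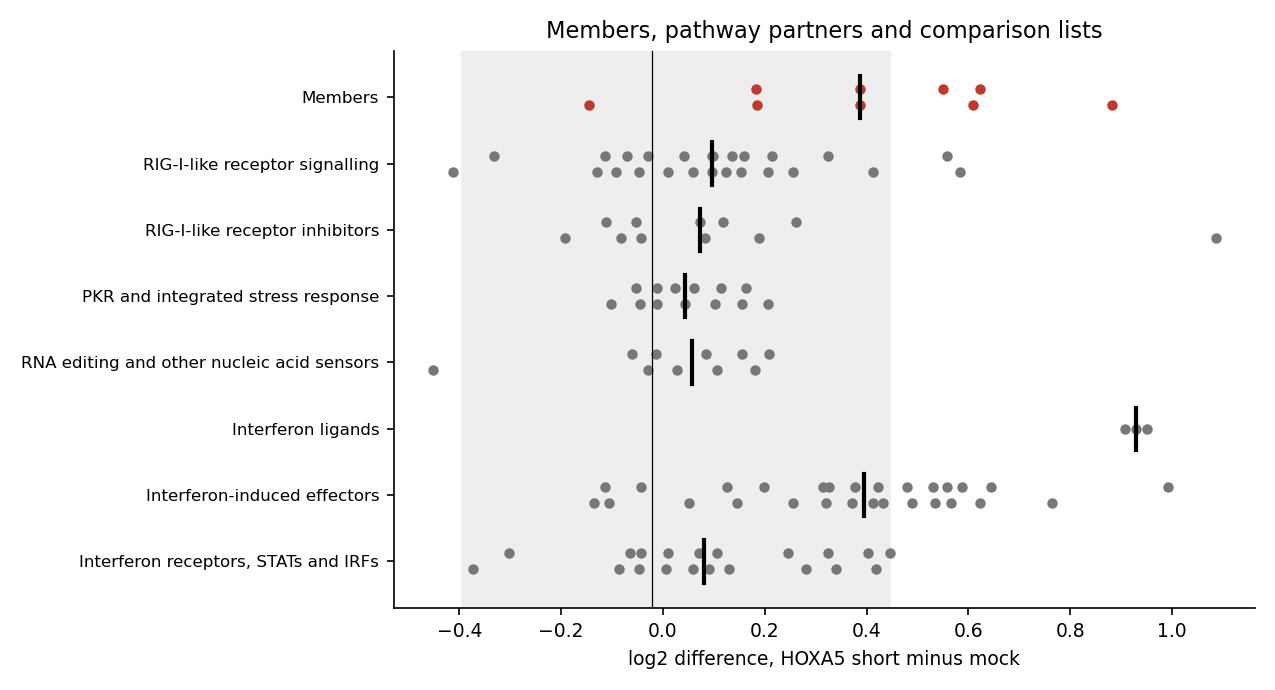
Log2 difference (x axis, HOXA5 short minus mock) of the 9 members (red) and of the genes of 7 lists (grey), with black bars at list medians, a thin line at the median of all genes (-0.02) and shading from the 5th to the 95th percentile of all genes (-0.40 to 0.45). The members, the interferon-induced effectors and the 3 interferons have medians of 0.39, 0.40 and 0.93, and the other lists drawn have medians between 0.04 and 0.10.

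The members were set beside a pair of related lists. Among all genes compared, 45.4% were higher and the median was -0.02. Of 29 interferon-induced effectors, 28 could be compared and 24 were higher, with a median of 0.40 against 0.39 for the 9 members. The range ran from IFIT5 at -0.14 to XAF1 at 0.99, and EIF2AK2 lay as low as IFIT5. Interferon receptors, STATs and IRFs had 14 of 20 genes higher and none 1.5-fold apart, with a median of 0.08. They ran from IFNAR1, a subunit of the type I interferon receptor, at -0.37 to the transcription factor IRF1 at 0.45. Whether the members differed from either list was not tested.

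The cell line label was set beside markers of cell types. Of colon epithelial markers, EPCAM, KRT8, KRT18, KRT19, CDH1 and CDX2 were detected on both arrays, with a median difference of 0.01, while VIL1, LGALS4 and CEACAM5 were not well above background. Of leukocyte markers, PTPRC and CD3E did not rise well above background on either array, CD68 was at 0.05, and CD14 was well above background on the HOXA5 short array alone. Of 6 fibroblast markers only COL1A1 was detected, at 0.13.

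**Figure D5:**
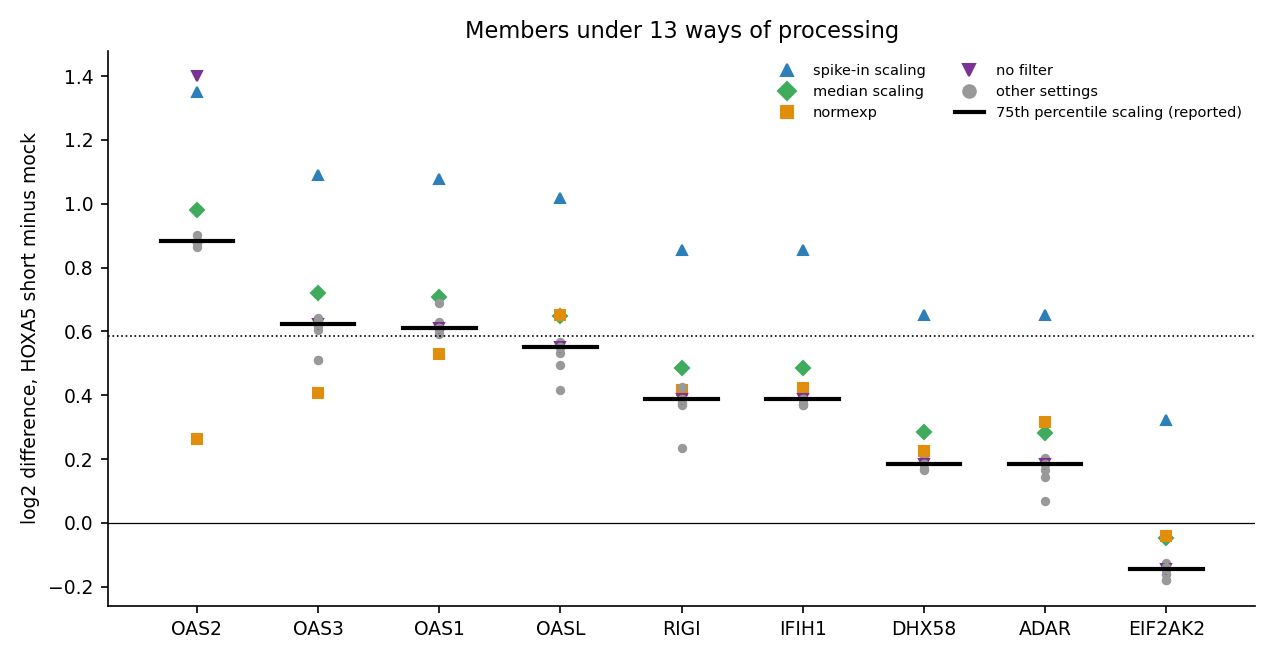
Log2 difference (y axis, HOXA5 short minus mock) of the 9 members under 13 ways of processing, with black bars for the reported values and a dotted line at 1.5-fold. Scaling to the spike-ins raised every member and brought EIF2AK2 to 0.32, and normexp brought OAS2 to 0.26. The OAS2 point at 1.40 (no filter) includes probes not well above background.

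All 9 members moved together with the scaling. Scaling to the spike-ins raised every gene by 0.47 and scaling to the median raised every gene by 0.10, so the member median less the median of all genes stayed at 0.41 under both. As each shift was the same for every gene, EIF2AK2 necessarily stayed below the median of all genes, at 0.32 against 0.44 with the spike-ins. OAS1 ranged from 0.53 to 1.08 over the 13 ways of processing, IFIH1 from 0.37 to 0.85 and DHX58 from 0.17 to 0.65. RIGI was lowest at 0.23, when its brighter probe was taken alone. OAS2, resting on 1 dim probe, ranged from 0.26 with normexp to 1.35 with the spike-ins, and did not pass the stricter filter on dim probes. With no filter its mean was 1.40, which takes in the pair of probes not well above background and is no measured level.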

How the data were processed

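Total RNA of the 2 samples was measured on 1-colour Agilent arrays. Per the file headers, the scanner images were read with Feature Extraction 11.5.1.1, and the deposited scanner files give a background-corrected intensity per spot on a linear scale, its error, and flags for background, outliers and saturation. The authors also deposited log2 values of 19461 probes, centred on each probe's mean, whose scaling is not given in the sources used here.

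Each array held 58717 non-control spots and 50599 probes, and 59.3% of probes matched a RefSeq accession of GRCh38.p14 (the array is annotated on hg19, so no gene coordinates are taken from it). No spot was saturated. Intensity was converted to log2, spots of a probe other than outliers were averaged, and each array was scaled by its 75th percentile over non-control probes. Of 18422 probes well above background in mock cells and 18953 in HOXA5 short cells, 17938 could be compared. A gene is the mean of its passing probes. A probe detected on 1 array alone was given a rough bound against the lowest signal well above background on the other. The bound is not strict, since the background flag does not follow the signal alone. The neighbourhood of a spot is 4 rows and columns on each side. With 1 array per group no test was possible, and precision is limited by the number of arrays. Analyses used Python 3.11.15, pandas 2.3.3, R 4.3.3 and limma 3.58.1 (normexp with offset 50, quantile, cyclic loess), and the computation was checked on simulated data.

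The members and gene lists were chosen with earlier results of these data known. Named genes are all members, direct partners, the highest and lowest gene of each list, those past 1.5-fold, neighbours on chromosome 12 and HOXA5. A few genes that this rule names are not reported here. Alternatives were other scalings, normalizations and background correction, the deposited log2 values, other filters, probe rules and thresholds, and the position on the array.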

Additional observations from a re-analysis of the deposited data

How the results depend on the processing

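The median of the members, 0.39, became 0.49 with scaling to the median and 0.86 with scaling to the spike-ins. The number of genes at least 1.5-fold higher, 333, became 500 with scaling to the median, 2991 with the spike-ins, 160 with normexp, 579 with the deposited log2 values, 1231 with no filter and 127 with signals above the median, and it was 786 at 1.3-fold and 77 at 2-fold. Genes higher made up 63.4% of those 1.5-fold apart, against 79.6% with scaling to the median, 99.2% with the spike-ins, 87.9% with normexp, 44.9% with no filter and 74.7% with signals above the median. The members past 1.5-fold numbered 3, against 4, 8 and 1 with median scaling, spike-ins and normexp, and 1 and 2 with signals above the median and the brightest probe. Members higher numbered 8 throughout, except 9 with the spike-ins and 7 of 8 with signals above the median. Of the values of member genes under the alternatives, 93 stayed within the spread of single spots, and 14 moved past it. EIF2AK2, which was not 1.5-fold apart, changed sign and was at 0.32 with the spike-ins. Of the signal ranges with a spread given, 15 to 50 had the widest, and the 1 OAS2 probe that passed lay there. Dimmer probes were given no range of their own. No paired analysis was possible because each group had 1 array.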

Other observations

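Of 28 interferon-induced effectors compared, 5 reached 1.5-fold higher in HOXA5 short cells, against 2.78% of all genes, and 0 reached 1.5-fold lower, against 1.6%. XAF1, an antagonist of the apoptosis inhibitor XIAP, was at 0.99 from a dim probe that read 13.1 ± 2.07 in mock cells and 32.1 ± 3.65 in HOXA5 short cells. IFIT2, an RNA-binding antiviral protein, had a mean of 0.76 over a bright probe at 0.35 and a dimmer one at 1.18. CMPK2, a mitochondrial nucleotide kinase, read 177 ± 17.8 and 341 ± 34.2, a difference of 0.64. MX2, a dynamin-like antiviral GTPase, was at 0.62 from 12.9 ± 2.26 and 24.4 ± 3.24. USP18, which removes ISG15 from proteins and dampens interferon signalling, read 472 ± 47.3 and 876 ± 87.6, a difference of 0.59. With normexp, XAF1 was at 0.23, MX2 at 0.10 and CMPK2 at 0.57, all short of 1.5-fold. The offset added with normexp by itself shrinks the differences of dim probes such as those of XAF1 and MX2. IFIT2 was at 0.35 when its brighter probe was taken alone, and USP18 was as low as 0.57. Each of the 5 genes was thus short of 1.5-fold under at least 1 alternative. With no filter the CMPK2 mean was 0.32, which takes in a probe not well above background on either array and is no measured level.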
